A study of Mus musculus with 24 samples.

Results

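The tumour necrosis factor (TNF) ligands, their receptors and the TRAF adaptor proteins are described here across sorted memory B cells. Members were taken by symbol: every row of the count table named Tnfrsf or Tnfsf followed by a number, and Traf2 to Traf7. This gave 31 of 18470 rows, made up of 16 receptor rows, 10 ligand rows (1 of them the antisense transcript Tnfsf13os) and 5 TRAF rows. Tnfrsf17, Tnfsf11, Tnfsf14 and Traf4 were not analysed here.

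Mice were given house dust mite extract intranasally and met the allergen again after 6 weeks, and memory B cells (csMBC in the labels) were then sorted for RNA sequencing. There were 6 groups of 4 libraries: CCR6+CD69+ and CCR6-CD69- cells of the lung and circulating cells, each from WT mice (SCAP +/+ hCD20-TamCre) and from cKO mice (SCAP fl/fl in place of SCAP +/+, with the same Cre). CCR6 is a chemokine receptor and CD69 a protein that retains lymphocytes in tissue. SCAP is the escort protein of SREBP factors, which control genes for making sterols and fatty acids; in cKO mice it was deleted before the second exposure. The Cre, carried by both genotypes, is driven by regulatory sequence of the human gene for CD20, a B cell surface protein, and is switched on by tamoxifen. The labels give no age, sex or strain, they name lung B cell as the source of the circulating libraries too, and they do not say whether replicates were separate animals. P-values therefore measure only the spread between these samples, which may be technical.

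TNF ligands are mostly trimeric proteins on the surface of immune cells, and they act by clustering their receptors. Receptors without a death domain recruit TRAF proteins, which lead to the canonical and alternative NF-kB pathways, while death domain receptors such as TNFR1 can also lead to cell death. In B cells the best known branch is that of the survival factor BAFF and its relative APRIL, which bind BAFF-R, TACI and BCMA.

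Total counts per library ran from 129025 to 8566243, so that 3 counts, taken as the limit of detection, corresponded to between 0.350 and 23.3 CPM, where CPM is the count of a gene for each 1e6 counts of its library. These limits reflect counting error alone. The 2 libraries under 500000 counts were cKO lung CCR6-CD69- replicate 4 (129025 counts) and WT circulating replicate 2 (356782 counts). The macrophage gene Chil3 led all genes in 2 libraries, WT lung CCR6-CD69- replicate 2 and cKO lung CCR6-CD69- replicate 1. Macrophage and monocyte markers summed to 42230 and 59780 CPM there, against 2391 to 6332 CPM in the other lung CCR6-CD69- libraries. Scap itself, whose deletion defines the cKO groups, averaged 86.6, 149 and 104 CPM in the WT groups (CCR6+CD69+, CCR6-CD69- and circulating, in that order) and 82.7, 90.0 and 223 CPM in the matching cKO groups. Counts over the whole gene need not fall when some exons are deleted, so these values do not show whether Scap was deleted. The B cell markers Ms4a1, Pax5, Cd72 and Fcrla were counted in every group, with group means of 557 to 1542 CPM for Ms4a1, the gene for CD20, and 871 to 1107 CPM for Pax5, a B cell transcription factor. Natural killer (NK) cell markers, 9 of 14 listed with a row, summed to 1294 to 3248 CPM in circulating libraries and to at most 48.7 CPM in lung libraries. Each library labelled circulating thus carried NK cell transcripts beside B cell transcripts. In bulk libraries, fewer cells of a type and less RNA per cell cannot be told apart.

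Expression was called at 5 CPM or more in at least 4 libraries, which 23 of the 31 members passed, against 36.4% of all rows. The 23 were also the members that passed the count filter of the test. Just inside the threshold were Tnfrsf9, with 5 libraries at that level, and Tnfsf13, with 6. The 5 libraries of Tnfrsf9 were all circulating, so it passed only through the group in which it is high. Just outside was Tnfrsf11a, which encodes RANK, with 3 such libraries. The rows that were not expressed had few counts: Tnfrsf11a in 8 libraries, Tnfsf15 in 8, Tnfsf18 in 7, Tnfsf4 in 5, Tnfrsf25 in 4, Tnfrsf11b and Tnfrsf19 in 2 each, and Tnfsf13os in 0. Among these are the ligands of the receptors GITR (Tnfsf18) and OX40 (Tnfsf4), whose receptor genes were themselves expressed.

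Levels of different genes were compared per kb of exon (GENCODE M21 gene models), as CPM per kb. Tnfrsf13c, which encodes BAFF-R, had the highest median over the 24 libraries at 152 CPM per kb, followed by Tnfrsf1b (TNFR2) at 97.9 and Tnfrsf13b (TACI) at 82.9. Their ranges over libraries, 6.84 to 311 for Tnfrsf13c, 6.09 to 210.3 for Tnfrsf1b and 17.0 to 574 for Tnfrsf13b, overlapped almost entirely, so their order does not exceed the spread. The TRAF genes came next, with medians of 33.2 (Traf3), 32.6 (Traf5), 22.6 (Traf7), 15.8 (Traf2) and 15.4 CPM per kb (Traf6), and neighbours in this order again overlapped. Of the ligands Tnfsf9, which encodes the ligand of 4-1BB, was highest with a median of 12.6 CPM per kb. The other 5 expressed ligands had medians under 1 CPM per kb, down to 0.133 for Tnfsf13b.

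**Figure D1:**
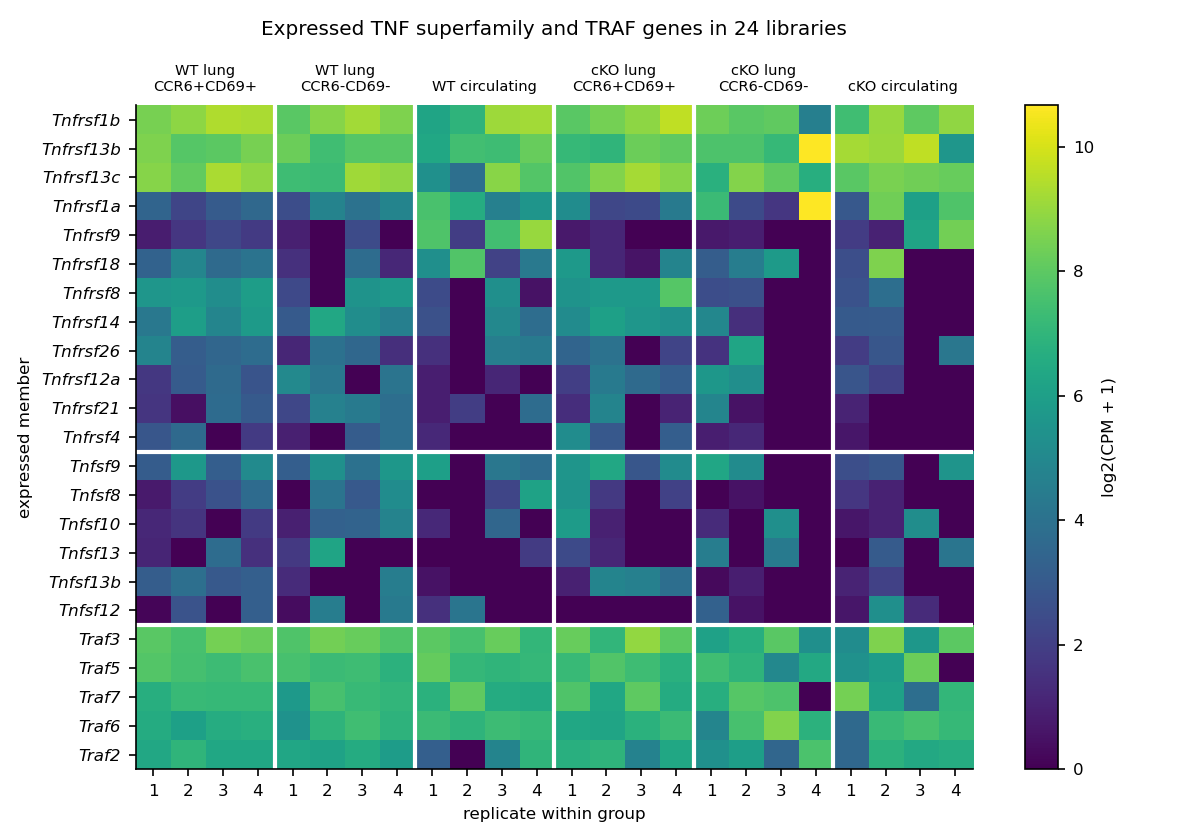
Each row is an expressed member and each column a library, grouped by population and genotype; colour is log2(CPM + 1). Tnfrsf13b, Tnfrsf13c, Tnfrsf1b and the TRAF genes are coloured across nearly all 24 libraries, while Tnfrsf9 stands out in 5 of the 8 circulating libraries.

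Differences were tested with edgeR's quasi-likelihood test on all 24 libraries with a term for batch, with Benjamini-Hochberg adjustment across all 6779 tested genes. Over the 6 groups 2 of 23 tested members passed an adjusted p of 0.05, Tnfrsf9 and Tnfrsf1a, against 3.47% of all genes tested. A further 4 members had an unadjusted p under 0.05: Tnfrsf13b (adjusted p 0.149), Tnfrsf4 (0.204), Tnfsf13b (0.221) and Tnfsf12 (0.321). In each of the 6 pairwise comparisons, of populations or genotypes, the libraries of the groups overlapped for all 23 members. The same count was not made over all genes tested, so it cannot be called particular to the members.

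Tnfrsf9 encodes 4-1BB (CD137), a costimulatory receptor of activated T cells and NK cells that signals through TRAF1 and TRAF2. Its gene, ENSMUSG00000028965.13, lies at chr4:150914562-150946102 on the plus strand (GRCm38, GENCODE M21). It stands in a part of chromosome 4 that also holds Tnfrsf25 (chr4:152115934-152120119), Tnfrsf14 (chr4:154921933-154928563), Tnfrsf4 (chr4:156013843-156016612) and Tnfrsf18 (chr4:156026164-156028895). In WT circulating replicates 1 to 4 it was counted at 210.4, 2.80, 171 and 522 CPM. In cKO circulating replicates it was counted at 2.74, 1.04, 73.7 and 336 CPM. So 5 of 8 circulating libraries were high, and the other 3, all of batch 1, were near the lung level.

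In lung libraries Tnfrsf9 stayed low throughout. The WT CCR6+CD69+ libraries had 0.817, 2.22, 3.78 and 2.53 CPM and the cKO ones 0.657, 1.20, 0 and 0 CPM. The WT CCR6-CD69- libraries had 0.888, 0, 4.44 and 0 CPM and the cKO ones 0.646, 0.842, 0 and 0 CPM. Summed over 8 libraries these came to 46 counts in CCR6+CD69+, 15 in CCR6-CD69- and 2914 in circulating cells.

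Tnfrsf9 was lower in both lung populations than in circulating cells, with genotypes averaged. Since its passing the expression threshold was tied to this difference, the test is no independent support for it. Against circulating cells its log2 fold change was -6.57 ± 1.23 (SE; edgeR, adjusted p 0.000140) in lung CCR6+CD69+ and -6.93 ± 1.26 (edgeR, adjusted p 0.000426) in lung CCR6-CD69-. In WT alone the same differences were -6.62 ± 1.67 (edgeR, adjusted p 0.0211) and -7.45 ± 1.76 (0.0490), and in cKO alone -6.52 ± 1.82 (0.0428) and -6.41 ± 1.84 (0.106). Between the lung populations it differed by 0.36 ± 1.09 on the log2 scale (edgeR, adjusted p 0.975). Leaving out any single library kept all 3 calls, with adjusted p of 2.35e-06 to 0.0311 over the 6 groups, 3.40e-05 to 0.00738 for CCR6+CD69+ and 0.000151 to 0.00837 for CCR6-CD69-. The log2 fold change for CCR6+CD69+ then ran from -7.07 (without cKO lung CCR6+CD69+ replicate 2) to -5.68 (without cKO circulating replicate 4), and that for CCR6-CD69- from -7.76 (without WT lung CCR6-CD69- replicate 3) to -6.06 (without cKO circulating replicate 4). Within batches the log2 difference from circulating libraries was -2.37 (batch 1) and -6.80 (batch 2) for CCR6+CD69+, and -2.88 and -7.27 for CCR6-CD69-. In batch 1 alone the gene did not pass the count filter.

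**Figure D2:**
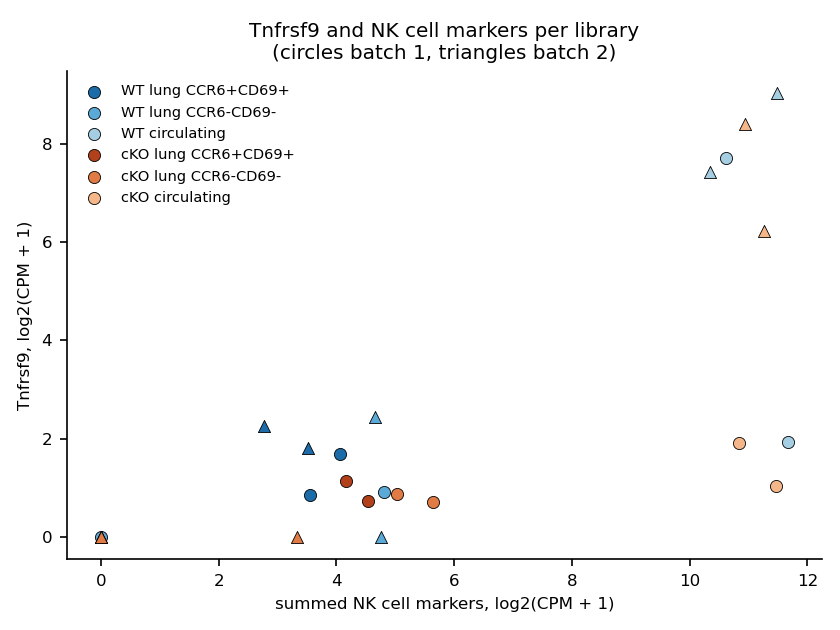
Each point is a library, with the summed CPM of 9 NK cell markers on the x axis and Tnfrsf9 on the y axis, both as log2(CPM + 1). All 8 circulating libraries lie at 1294 CPM of markers or more, 5 of them with Tnfrsf9 at 73.7 CPM or more and 3 at 2.80 CPM or less.

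NK cell markers moved with this difference. All 9 tested markers, among them Nkg7, Eomes and Ncr1, were called lower in each lung population than in circulating cells. Their sums were 1575, 3248, 1294 and 2869 CPM in WT circulating libraries and 1841, 2839, 2467 and 1974 CPM in cKO ones. The 3 circulating libraries with low Tnfrsf9 had sums of 3248, 1841 and 2839 CPM, so within the circulating libraries the sum did not separate high from low Tnfrsf9. T cell markers, 8 of 14 listed with a row and all of them counted in each group, summed to 393 to 2273 CPM in circulating and to 19.1 to 178 CPM in CCR6+CD69+ libraries. In CCR6-CD69- libraries they summed to 23.3 to 755 CPM, which overlaps the circulating range. Against circulating cells 4 of 8 T cell markers were called lower in CCR6+CD69+ and 0 of 8 in CCR6-CD69- (2 at an unadjusted p under 0.05). The part of either cell type in the Tnfrsf9 difference was not tested. The 3 tested genes most like Tnfrsf9 were Klra9 (Pearson's r 0.825), Nkg7 (0.810) and Klra4 (0.798), over log2 CPM in 24 libraries with batch means removed. These libraries share depth and composition, and the correlation is given as a description. Tnfrsf9 overlaps Camta1 on the opposite strand, and strand use in counting is not given in the sources used here. Camta1 had 0 to 4.87 CPM in the 5 circulating libraries with high Tnfrsf9 and reached 244 CPM in WT circulating replicate 2, where Tnfrsf9 was low.

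Promoter windows (250 bases before to 50 after a start) from RefSeq, on GRCm38.p6, were found for 25 of the 31 members, in 29 windows, and searched on both strands for the NF-kB motif, since TNF receptors signal to this factor. The motif was found in 3 of 29 member windows (10.3%) and in 4.51% of all 32851 windows. These were the windows of Tnfrsf8, Tnfrsf9 and Traf3, which are printed 5′ to 3′ as the 80 bases that hold the match, in capitals. The stretches are chr4:145315288-145315367 (minus strand, Tnfrsf8), chr4:150927919-150927998 (plus strand, a start inside the Tnfrsf9 gene) and chr12:111166290-111166369 (plus strand, Traf3). In Tnfrsf9, matches overlap and only the 1 found on both strands is in capitals, and in Tnfrsf8 the match was read on the strand opposite to the gene. In Traf3 the match ends at the last base before the start.
Tnfrsf8: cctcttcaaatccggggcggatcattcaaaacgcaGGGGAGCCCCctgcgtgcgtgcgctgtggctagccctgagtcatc
Tnfrsf9: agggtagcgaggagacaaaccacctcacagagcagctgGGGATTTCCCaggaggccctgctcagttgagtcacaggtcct
Traf3: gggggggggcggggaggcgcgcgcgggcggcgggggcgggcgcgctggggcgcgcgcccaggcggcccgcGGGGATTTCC

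Tnfrsf1a encodes TNFR1, the death domain receptor for TNF that most cell types carry. Its gene, ENSMUSG00000030341.17, lies at chr6:125349362-125362484 on the plus strand (GRCm38). WT circulating libraries had 191, 95.3, 23.9 and 46.3 CPM and cKO ones 6.58, 329, 65.6 and 211 CPM. Lung CCR6+CD69+ libraries had 9.81, 3.69, 7.27 and 11.2 CPM in WT and 35.1, 3.83, 4.32 and 19.9 CPM in cKO. Of the 8 circulating libraries 6 lay above all CCR6+CD69+ libraries, the exceptions being WT replicate 3 and cKO replicate 1.

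In lung CCR6-CD69- cells Tnfrsf1a was spread widely. WT libraries had 4.74, 26.5, 15.2 and 27.2 CPM and cKO libraries 154, 4.21, 2.26 and 1628 CPM. The value of 1628 CPM rests on 210 counts in the library of 129025 counts. The value of 154 CPM is that of a Chil3-led library, cKO replicate 1.

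The log2 fold change of Tnfrsf1a was -3.52 ± 0.94 in lung CCR6+CD69+ against circulating cells (edgeR, adjusted p 0.0207). Against lung CCR6-CD69- it was -3.01 ± 0.94 and not called (edgeR, adjusted p 0.122). That value moved with single libraries. Without cKO lung CCR6-CD69- replicate 4 it was -1.22 (edgeR, adjusted p 0.742), and without the small and the Chil3-led libraries it was 0.61. It gained a call without cKO lung CCR6-CD69- replicate 2 (edgeR, adjusted p 0.0256) or 3 (0.0286). The difference from circulating cells was alike in WT alone (-3.62 ± 1.35) and cKO alone (-3.43 ± 1.31), neither called (edgeR, adjusted p 0.246 and 0.262), and was -3.39 and -2.58 within batches 1 and 2. It lost its call without cKO circulating replicate 4 (edgeR, adjusted p 0.0572) and without WT lung CCR6+CD69+ replicate 2. The difference over the 6 groups lost its call without cKO lung CCR6-CD69- replicate 4 (edgeR, adjusted p 0.0895). Dendritic and plasmacytoid dendritic cell markers, 8 of 12 listed with a row, summed to 953 to 2459 CPM in circulating and 43.2 to 253 CPM in CCR6+CD69+ libraries. In CCR6-CD69- libraries they summed to 461 to 2821 CPM, which overlaps the circulating range. Xcr1 was at 0 in WT circulating, WT CCR6-CD69- and cKO CCR6+CD69+ libraries. Of the 7 tested, 6 had lower fitted values in CCR6+CD69+ than in circulating cells, 5 of them called, and 1 a higher value. Zbtb46 averaged 24.3 (WT) and 29.6 CPM (cKO) in CCR6+CD69+ libraries, against 0.221 and 13.3 CPM in circulating ones. The part of these markers in the Tnfrsf1a difference was not tested. The tested genes most like Tnfrsf1a were Nabp1 (r 0.833), Gorasp2 (0.764) and Zeb2 (0.726).

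**Figure D3:**
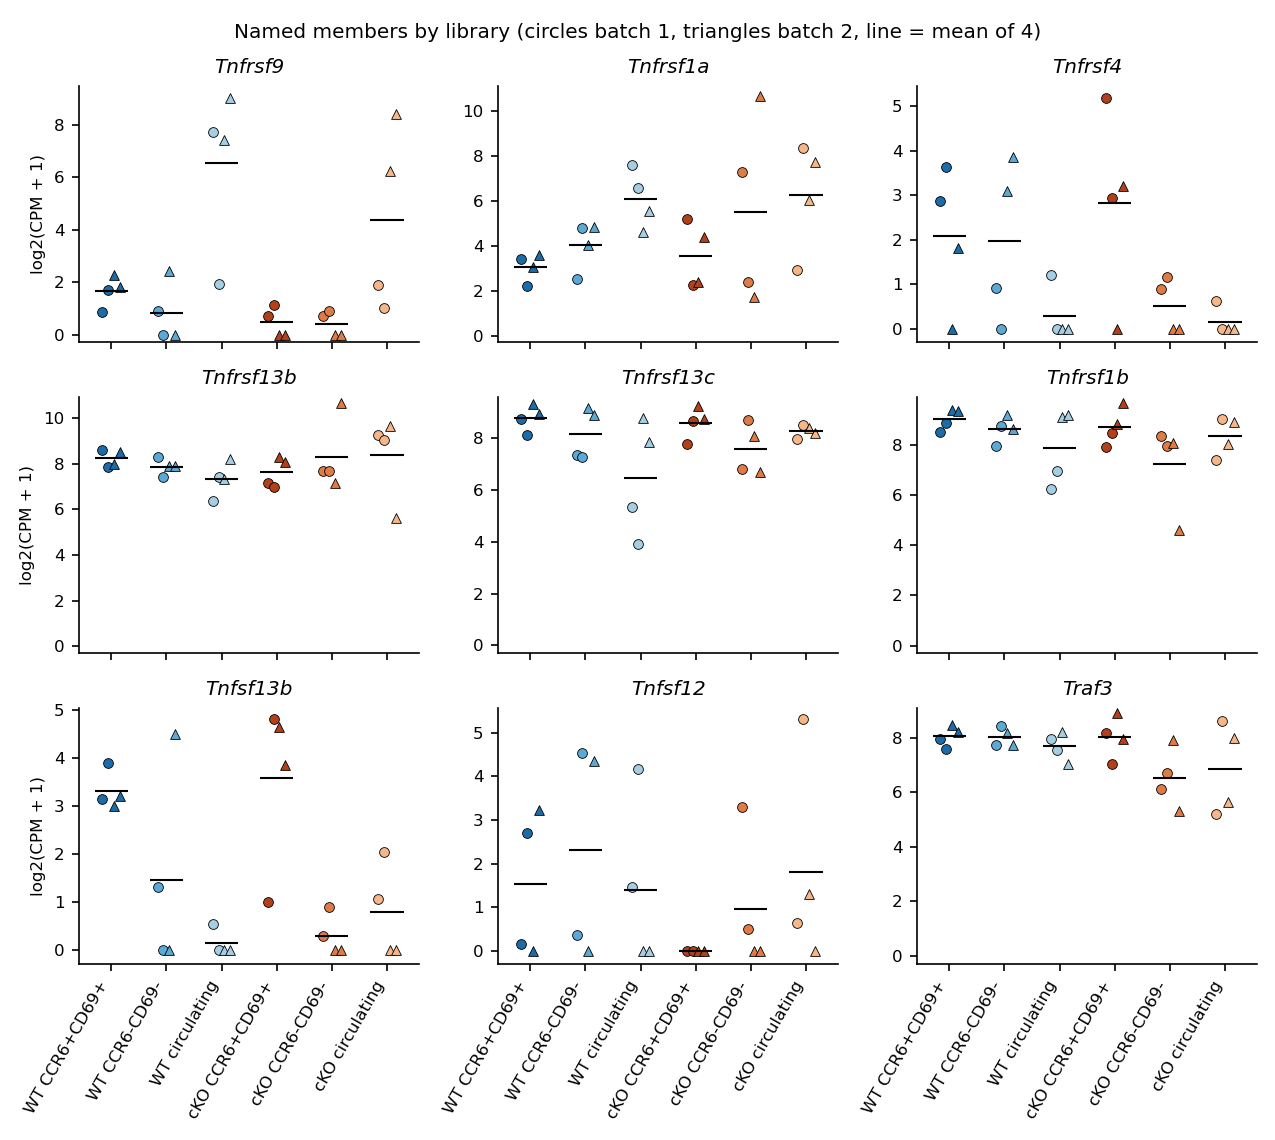
Each panel is a named member and each point a library in log2(CPM + 1), with circles for batch 1, triangles for batch 2 and a line at the mean of 4. Tnfrsf9 and Tnfrsf1a show high points among circulating libraries, and cKO lung CCR6-CD69- replicate 4 stands apart in Tnfrsf1a and Tnfrsf13b at 1628 CPM each.

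Tnfrsf1b encodes TNFR2, the TNF receptor without a death domain, found mainly on immune and endothelial cells. Its WT means were 533 ± 148 CPM (SD, n = 4) for lung CCR6+CD69+, 410.3 ± 135 for lung CCR6-CD69- and 331 ± 269 for circulating libraries. The cKO means in the same order were 462 ± 243, 214 ± 131 and 356 ± 170.4 CPM. No difference over the 6 groups was called (edgeR, adjusted p 0.900). Lung CCR6+CD69+ libraries had 357, 463, 666 and 645 CPM in WT and 242, 348, 456 and 803 CPM in cKO. The lowest and the highest of these 8 were both cKO. Lung CCR6-CD69- libraries had 247, 428, 576 and 391 CPM in WT and 322, 247, 265 and 23.2 CPM in cKO, the lowest in the library of 129025 counts. Circulating libraries had 75.1, 123, 551 and 576 CPM in WT and 166, 524, 262 and 474 CPM in cKO, so that in WT both batch 1 libraries were the low ones.

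Tnfrsf13c encodes BAFF-R, the main survival receptor of mature B cells, at chr15:82221743-82224369 on the minus strand (GRCm38). In WT circulating libraries it was counted at 39.8, 14.0, 440.3 and 227 CPM and in cKO circulating ones at 245, 364, 330.4 and 293 CPM. The WT lung CCR6+CD69+ libraries had 424, 279, 637 and 483 CPM, and the cKO ones 217, 402, 592 and 424 CPM. Of lung CCR6-CD69- libraries, WT had 163, 152, 563 and 471 CPM and cKO had 109.9, 415, 269 and 100.8 CPM. The lowest 2 values were WT circulating replicates 1 and 2, both of batch 1. Its cKO against WT difference in circulating cells was 1.53 ± 0.69 on the log2 scale (edgeR, adjusted p 0.439), and was 4.24 in batch 1 and -0.05 in batch 2.

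Tnfrsf13b encodes TACI, a receptor for BAFF and APRIL that is raised on memory B cells, at chr11:61126755-61149372 on the plus strand (GRCm38). WT circulating libraries had 81.3, 171, 161 and 293 CPM and cKO circulating libraries 601, 529, 807 and 48.3 CPM. Of the cKO libraries 3 lay above all WT ones and 1 below them. The log2 fold change of cKO against WT in circulating cells was 2.08 ± 0.69 (edgeR, adjusted p 0.419), with 2.88 in batch 1 and -0.15 in batch 2. Lung CCR6+CD69+ libraries had 388, 232, 248 and 358 CPM in WT and 139.9, 124, 309 and 266 CPM in cKO, while lung CCR6-CD69- libraries had 309, 169, 234 and 236 CPM in WT and 203, 204, 139.9 and 1628 CPM in cKO. No population comparison called it.

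Tnfrsf4 encodes OX40, a costimulatory receptor of T cells. It had 4 counts over the 8 circulating libraries. Lung CCR6+CD69+ libraries had 6.30, 11.5, 0 and 2.53 CPM in WT and 35.5, 6.70, 0 and 8.17 CPM in cKO, and lung CCR6-CD69- libraries 0.888, 0, 7.61 and 13.4 CPM in WT and 0.862, 1.26, 0 and 0 CPM in cKO. Against circulating cells its log2 fold change in CCR6+CD69+ was 4.51 ± 1.48 (edgeR, adjusted p 0.0598) and was not called. Its 7 libraries at 5 CPM or more were all of the lung, so this test is no independent support for a difference. T cell marker sums were lower in CCR6+CD69+ than in circulating libraries, and their part in the Tnfrsf4 values was not tested.

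Tnfrsf8 encodes CD30, a receptor of activated lymphocytes, and was chosen after its values were seen. Lung CCR6+CD69+ libraries had 48.1, 52.7, 36.4 and 60.02 CPM in WT and 43.0, 53.8, 52.4 and 228 CPM in cKO. Lung CCR6-CD69- libraries had 4.14, 0, 43.7 and 54.0 CPM in WT and 4.74, 5.05, 0 and 0 CPM in cKO, and circulating ones 4.42, 0, 39.3 and 0.433 CPM in WT and 5.48, 13.6, 0 and 0 CPM in cKO. All 8 CCR6+CD69+ libraries were at 36.4 CPM or more, and 3 of the other 16 reached that level. Its log2 fold change was 2.87 ± 1.19 against CCR6-CD69- (edgeR, adjusted p 0.335) and 2.86 ± 1.19 against circulating cells (edgeR, adjusted p 0.169), so it was not called, while DESeq2 and limma voom called the second difference.

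The other expressed receptors are given by the range of their 6 group means. Tnfrsf18, which encodes the costimulatory receptor GITR, ran from 3.93 CPM (WT lung CCR6-CD69-) to 97.6 CPM (cKO circulating). In cKO circulating libraries its median was 2.47 CPM and its highest library had 385 CPM. Tnfrsf14, which encodes HVEM, ran from 3.61 CPM (cKO circulating) to 47.0 CPM (cKO lung CCR6+CD69+), and its log2 fold change between lung CCR6+CD69+ and circulating cells was 2.53 ± 1.17 (edgeR, adjusted p 0.235). Tnfrsf12a, which encodes the TWEAK receptor Fn14, ran from 0.525 CPM (WT circulating) to 21.8 CPM (cKO lung CCR6-CD69-). Tnfrsf21, which encodes death receptor DR6, ran from 0.274 to 15.6 CPM and Tnfrsf26 from 6.67 to 19.8 CPM. In the group with the highest Tnfrsf26 mean the median was 0.970 CPM and the highest library had 77.1 CPM. For Tnfrsf14, Tnfrsf12a and Tnfrsf21 the medians of the highest groups were 43.5, 19.0 and 16.9 CPM. None of these 5 was called in any comparison by edgeR.

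Among the ligands, Tnfsf13b encodes BAFF, which myeloid and stromal cells make for B cells. Lung CCR6+CD69+ libraries had 7.82, 13.9, 6.98 and 8.32 CPM in WT and 0.985, 27.3, 24.0 and 13.5 CPM in cKO. Lung CCR6-CD69- libraries had 1.48, 0, 0 and 21.8 CPM in WT and 0.215, 0.842, 0 and 0 CPM in cKO. Circulating libraries had 0.442, 0, 0 and 0 CPM in WT and 1.10, 3.13, 0 and 0 CPM in cKO, 6 counts in all. All 8 CCR6+CD69+ libraries had counts and 7 of them lay above all circulating libraries. Of the 8 libraries at 5 CPM or more, 7 were CCR6+CD69+, so Tnfsf13b passed the expression threshold only through the group in which it is high. The test against circulating cells is therefore no independent support for a difference. Against circulating cells the log2 fold change was 4.71 ± 1.53 (edgeR, adjusted p 0.0581), short of the threshold. It was called by DESeq2 (adjusted p 0.0212), and by edgeR with RLE factors (0.0466), with only the groups compared (0.0322) and without the 2 libraries in which the macrophage gene Chil3 led all genes (0.0462). The other 13 of 17 alternative settings did not call it. Leaving out single libraries called it in 2 of 24 fits, with adjusted p up to 0.119 (edgeR). Macrophage and monocyte markers, 11 of 12 listed with a row, summed to 1053 to 4701 CPM in CCR6+CD69+ libraries and 1507 to 5860 CPM in circulating ones, which overlap. Marco was at 0 in circulating libraries of both genotypes and in WT CCR6+CD69+ ones, and Fcgr1 in cKO CCR6+CD69+ ones. Of the 9 macrophage and monocyte markers tested, 8 had lower fitted values in CCR6+CD69+ than in circulating cells, 1 of them called, and 1 had a higher value. Granulocyte markers, 9 of 10 listed with a row, summed to 40.4 to 1276 CPM in CCR6+CD69+ and 0 to 364 CPM in circulating libraries, with Mcpt8 at 0 in all of these. Of these markers 6 were tested, and all 6 had higher fitted values in CCR6+CD69+, 0 of them called; their part in the BAFF values was not tested.

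Tnfsf12 encodes TWEAK, the ligand of Fn14. In lung CCR6+CD69+ cells it was at 0 in all 4 cKO libraries and at 0.117, 5.54, 0 and 8.32 CPM in WT ones. Lung CCR6-CD69- libraries had 0.296, 22.1, 0 and 19.3 CPM in WT and 8.83, 0.421, 0 and 0 CPM in cKO, and circulating ones 1.77, 16.8, 0 and 0 CPM in WT and 0.548, 38.6, 1.48 and 0 CPM in cKO. In each group with counts, 1 or 2 libraries held nearly all of them. With 54 counts in WT lung CCR6+CD69+ and 0 in cKO, the pooled WT value of 2.68 CPM was 10.8-fold the cKO limit. That limit was 0.247 CPM, for 3 counts over the group. The ratio allows for counting error in cKO alone, not in the WT counts, and not for the spread between libraries. The difference did not pass the threshold (edgeR, p 0.00615, adjusted p 1.00). Of the 54 counts, 30 came from WT replicate 2 and 23 from replicate 4. Without either of these the ratio was 6.57-fold or 7.19-fold. The fitted log2 fold change, which depends on the prior count and is no bound, was -4.24 at its nearest to 0, without WT replicate 4. The groups overlapped, since WT replicate 3 was also at 0. Tnfsf12 and Tnfsf13, which encodes APRIL, overlap the fusion gene Tnfsfm13 on the same strand, so their counts are uncertain.

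The remaining ligands are given by the range of their 6 group means. Tnfsf9 ran from 13.9 CPM (cKO circulating) to 42.6 CPM (cKO lung CCR6+CD69+). Tnfsf8 (the CD30 ligand) ran from 0.105 to 18.6 CPM, Tnfsf13 from 0.649 to 19.0 CPM and Tnfsf10 (TRAIL, a death receptor ligand) from 1.46 to 14.4 CPM. In the groups with the highest means the medians were 40.6 (Tnfsf9), 1.83 (Tnfsf8), 1.18 (Tnfsf13) and 0.478 CPM (Tnfsf10). The highest libraries of those groups had 83.2, 70.55, 73.5 and 56.5 CPM in the same order. All 6 expressed ligands had lower fitted values in cKO than in WT in lung CCR6-CD69- cells (median log2 fold change -1.87), beside a median of -0.31 over all genes tested. None of the 6 was called there. Within batches 1 and 2 the log2 differences were -1.49 and -1.53 (Tnfsf10), -0.33 and -2.26 (Tnfsf12), and -1.74 and 2.23 (Tnfsf13). They were -0.03 and -2.34 (Tnfsf13b), -1.79 and -4.24 (Tnfsf8), and 1.71 and -4.95 (Tnfsf9). In cKO replicate 4 of this population, with 129025 counts, 3 counts were 23.3 CPM. In lung CCR6+CD69+ and in circulating cells 4 ligands were higher and 2 lower in cKO. The medians of the 6 were 0.83 and 1.71 there, beside 0.04 and 0.16 over all genes tested.

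No TRAF adaptor was called in any comparison by edgeR, and none had an unadjusted p under 0.05. Traf3, which restrains the alternative NF-kB pathway, averaged 270.5 ± 69.1, 263 ± 62.1 and 215 ± 70.02 CPM in the WT groups (lung CCR6+CD69+, then CCR6-CD69-, then circulating; SD, n = 4) and 288 ± 147, 113 ± 90.4 and 183 ± 172 CPM in the matching cKO groups. Its libraries in that order of populations had 245, 189.8, 351 and 296, then 211, 339.7, 288 and 214, then 249, 188, 291 and 131 CPM in WT. In cKO they had 289.7, 130.3, 483 and 249.7, then 68.3, 102, 243 and 38.8, then 35.6, 393, 48.7 and 253 CPM. The cKO circulating libraries were thus split, with replicates 2 and 4 high and 1 and 3 low.

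Traf5, an adaptor of several costimulatory receptors, averaged 190.3 ± 27.1, 155 ± 31.5 and 170 ± 74.2 CPM in WT and 159 ± 46.8, 101 ± 57.4 and 101.3 ± 139 CPM in cKO. By library it had 224, 181, 159.7 and 196, then 191, 154, 161 and 114, then 281, 137, 126 and 136 CPM in WT. In cKO it had 144, 221, 163 and 109, then 166, 122, 30.9 and 85.2, then 40.5, 58.5, 306 and 0 CPM. The highest and the lowest Traf5 library were both cKO circulating, replicates 3 and 4.

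Traf7 averaged 132 ± 19.4, 129 ± 55.8 and 140.3 ± 84.5 CPM in WT and 162 ± 88.7, 134 ± 105 and 141 ± 146 CPM in cKO. By library it had 103, 144, 139 and 141, then 53.0, 187, 144 and 130.3, then 111, 266, 94.5 and 89.6 CPM in WT. In cKO it had 214, 80.8, 260.4 and 93.8, then 102, 229, 204 and 0, then 347, 67.9, 13.3 and 135 CPM. The library at 0 was the one of 129025 counts. Group means of Traf2, which links TNF receptors to ubiquitin ligases, ran from 40.3 to 92.1 CPM, and those of Traf6, which also serves Toll-like receptors, from 89.8 to 184 CPM.

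**Figure D4:**
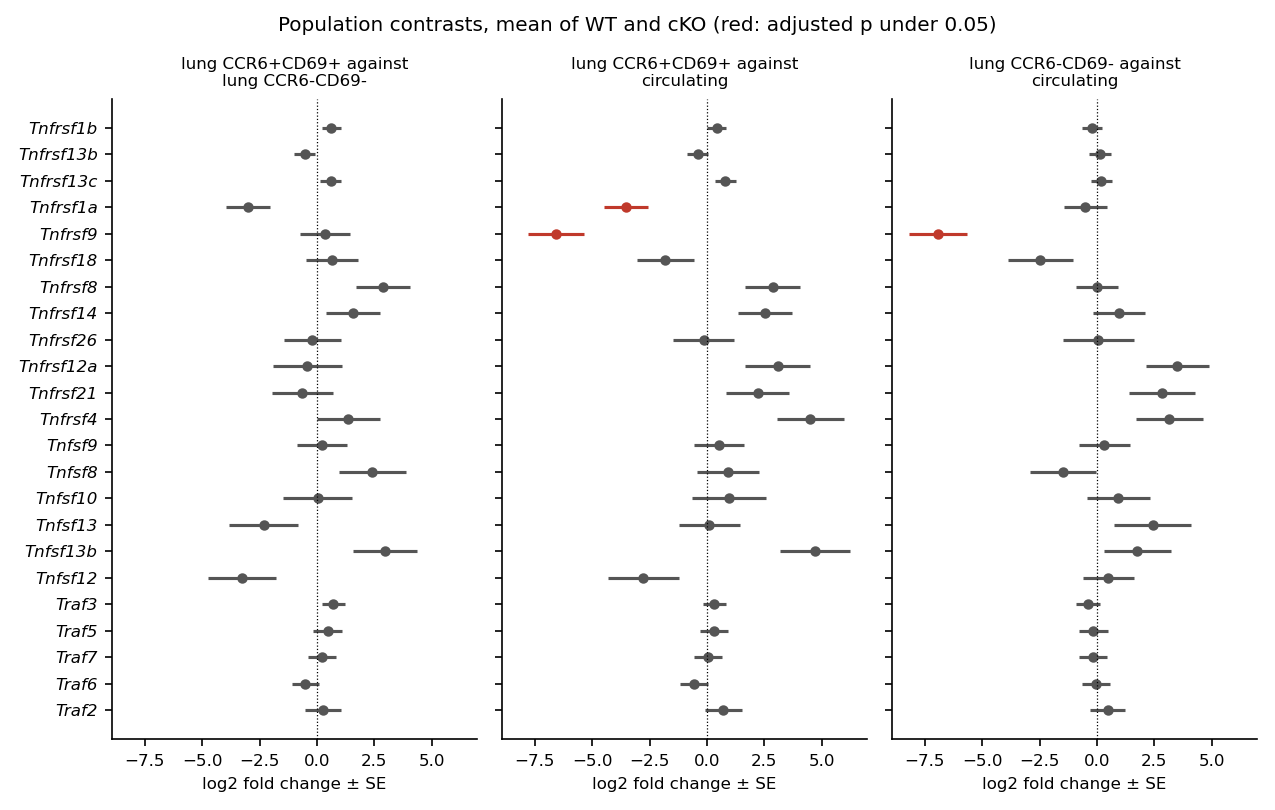
Points are log2 fold changes of the 23 tested members with SE as bars, for the 3 pairs of populations with genotypes averaged; red marks an adjusted p under 0.05. Tnfrsf9 is red against circulating cells in both lung populations, at -6.57 and -6.93, and Tnfrsf1a in lung CCR6+CD69+ only, at -3.52.

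By population pair, 0 of 23 members were called between the lung populations, beside 1.45% of all genes tested (0.0885% higher and 1.36% lower in CCR6+CD69+), with 4 at an unadjusted p under 0.05. Between lung CCR6+CD69+ and circulating cells 2 were called, both lower in lung, beside 4.87% of all genes (1.55% higher and 3.32% lower in lung), with 7 at an unadjusted p under 0.05. Between lung CCR6-CD69- and circulating cells 1 was called, lower in lung, beside 1.56% of all genes (0.561% higher and 1.00% lower in lung). The median log2 fold change of the 23 members was 0.25, 0.42 and 0.13 in these comparisons, beside 0.14, 0.11 and -0.04 over all genes tested. The last 2 comparisons share the circulating libraries.

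In the genotype comparisons 0 of 23 members were called in any of the 3 populations by edgeR, and 0 of 6779 genes (0%). At an unadjusted p under 0.05 there were 1, 3 and 2 members in CCR6+CD69+, CCR6-CD69- and circulating cells. The test of whether the genotype effect differed between populations also called 0 members, with 3 at an unadjusted p under 0.05, and 0% of all genes. DESeq2 called 1 member, Tnfrsf1a in lung CCR6-CD69-, with a higher fitted value in cKO (DESeq2, log2 fold change 5.59 ± 1.16, adjusted p 0.00124). In edgeR that difference was 4.91 ± 1.42 (adjusted p 0.610), without cKO replicate 4 it was 1.14, and without the small and the Chil3-led libraries it was -2.37. The share of all genes that DESeq2 called between genotypes is not given here. The Tnfrsf9 differences between genotypes were -1.55 ± 1.46, -0.60 ± 1.60 and -1.64 ± 1.40 in the same order of populations. The width of these errors limits what could be detected.

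**Figure D5:**
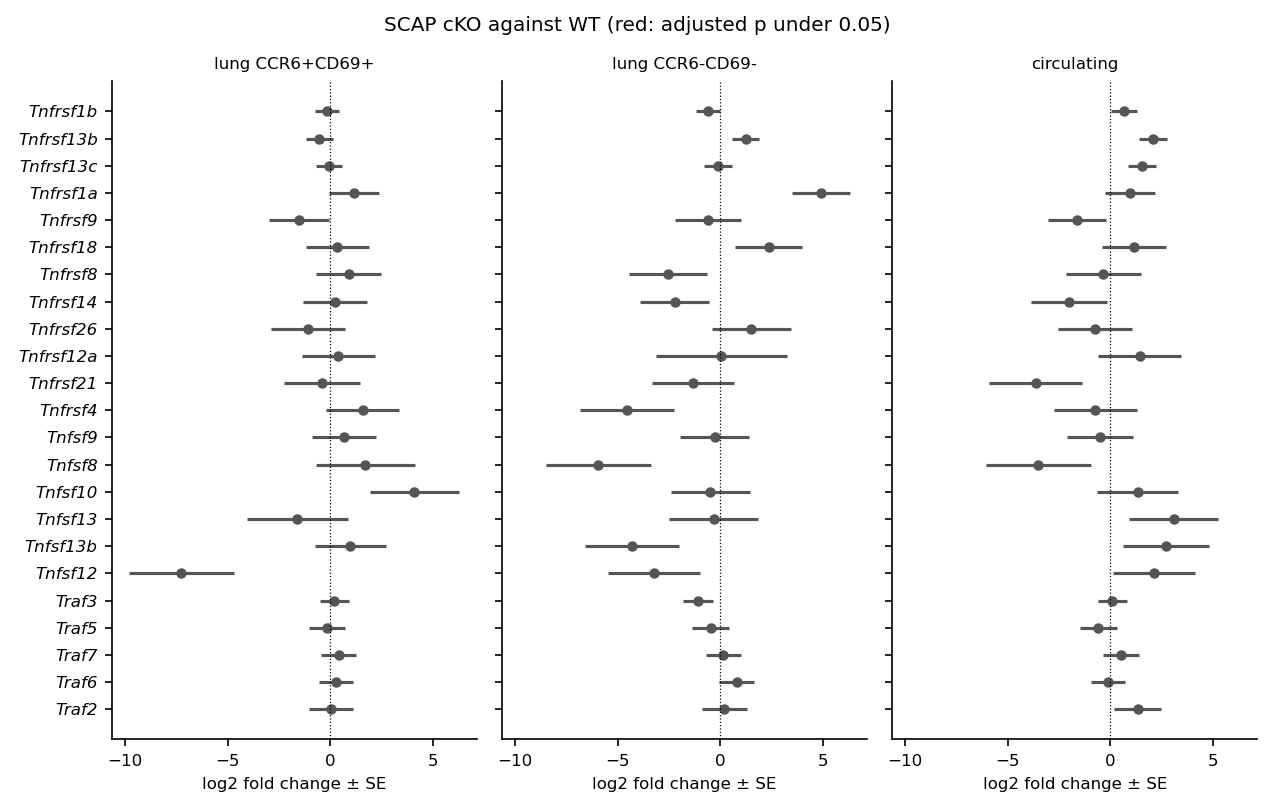
Points are log2 fold changes of cKO against WT for the 23 tested members with SE as bars, in each population. No point is marked as passing; the widest bars belong to ligands and other genes with few counts, and Tnfrsf1a in lung CCR6-CD69- stands at 4.91.

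Genes of the same pathway under other names were counted from 3 lists. Of 9 tested family members named otherwise (19 listed), 4 were called between lung CCR6+CD69+ and circulating cells, beside the 4.87% of all genes tested. Cd27, a receptor of T, NK and memory B cells, fell in lung (log2 fold change -7.60 ± 1.62, edgeR adjusted p 0.00105). Fasl, a death ligand of T and NK cells, fell too (-6.24 ± 1.46, edgeR adjusted p 0.00365), as did Rell1, a RELT-like membrane protein (-3.31 ± 0.41, 1.33e-08). Traf1, an adaptor induced on activation, rose by 1.58 ± 0.50 (edgeR adjusted p 0.0496). In CCR6+CD69+ libraries Cd27 averaged 1.97 (WT) and 0 CPM (cKO), and Fasl 1.58 and 0.485 CPM. All 4 WT circulating libraries had at least 11.05 CPM of Cd27 and 42.0 CPM of Fasl. Their passing the count filter was thus tied to the group in which they are high. The calls of Cd27 and Fasl, and the 4 of 9 that includes them, are therefore no independent support for a difference. In WT, Rell1 averaged 66.7 CPM for lung CCR6+CD69+, 289 CPM for lung CCR6-CD69- and 543 CPM for circulating libraries, and it was also lower in CCR6+CD69+ than in CCR6-CD69- (-2.46 ± 0.39, edgeR adjusted p 2.07e-05, beside 1.45% of all genes).

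Of 18 tested receptor-proximal signalling genes (33 listed), 1 was called. Tifa, an adaptor that binds TRAF6, fell in lung CCR6+CD69+ against circulating cells (-4.90 ± 0.69, edgeR adjusted p 4.23e-07) and against lung CCR6-CD69- (-3.20 ± 0.64, 0.00124). It averaged 9.30 CPM in WT lung CCR6+CD69+ and 274 CPM in WT circulating libraries. Of 6 tested NF-kB subunits and inhibitors (11 listed), Rel, the c-Rel subunit of B cell activation, rose in lung CCR6+CD69+ (1.07 ± 0.30, edgeR adjusted p 0.0209) and in lung CCR6-CD69- (1.30 ± 0.30, 0.0106, beside 1.56% of all genes) against circulating cells. Whether NK, T or dendritic cell transcripts in circulating libraries bear on these values was not tested. Over the 3 lists together no gene was called between genotypes.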

How the data were processed

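The table the authors deposited holds whole-number read counts by gene symbol, 18470 rows by 24 samples. FastQC, STAR, Salmon and mm39 appear without versions in the submitters' processing notes; which tool made the counts, its annotation and its use of strand are not given in the sources used here. RNA was polyA selected and libraries came from a kit adapted for few cells, per the labels' protocols. CPM, counts divided by the library total over all rows, and all tests were computed here.

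Tests used R 4.3.3 and edgeR 4.0.16, with TMM scaling (trimmed mean of M values), filterByExpr by group (6779 genes kept), a robust quasi-likelihood F-test on 24 libraries with group and batch, and Benjamini-Hochberg adjustment over the genes tested, at 0.05. The 3 population comparisons average the WT and cKO contrasts. The common dispersion was 1.201. The 2 batches are as labelled, with 2 libraries of each group in each; 530 of 6779 genes differed between batches, and 0 of 23 members. No libraries were identical. The test was tested on simulated data.

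Alternatives were edgeR with relative log expression (RLE) factors, DESeq2 1.42.0, limma 3.58.1 voom with quality weights, no filter, a stricter filter, immunoglobulin rows left out, a fit with no term for batch, either batch by itself, only the groups compared, either genotype by itself, the replicate number as a block, libraries under 500000 counts or led by Chil3 left out, and each library left out. The alternatives for uncalled members, and leaving out small and Chil3-led libraries together, were chosen after seeing the data.

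Members and gene lists were chosen with earlier results of these data known. Named with values in every library were members called in any comparison, the receptors for BAFF and APRIL, the 6 with the highest mean CPM and the 6 with the smallest p over the 6 groups; Tnfrsf8 was added after its values were seen. Coordinates are from GENCODE M21 (GRCm38) and were not converted to mm39; exon lengths are from the same models. A further B cell marker is not reported here.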

Additional observations from a re-analysis of the deposited data

Results flagged for a closer look

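In 12 of 66 groups of 4 libraries examined (11 named members by 6 groups, 65 with a range above 0), the highest or lowest library lay further from the rest than Dixon's 95% critical value. For values with a normal distribution chance flags about 1 in 20 groups. The CPM values here include zeros, and a group with 3 libraries at 0 and 1 with a count is always flagged. That rate therefore does not apply, and the 12 flags cannot be read as more than chance gives. In cKO lung CCR6-CD69- replicate 4, the library of 129025 counts, Tnfrsf13b stood at 1628 CPM against 139.9 to 204 CPM in the other 3, and Tnfrsf1a at 1628 CPM against 2.26 to 154 CPM, each on 210 counts. Tnfsf12 was high in WT circulating replicate 2 at 16.8 CPM (6 counts, others up to 1.77), in cKO lung CCR6-CD69- replicate 1 at 8.83 CPM (others up to 0.421) and in cKO circulating replicate 2 at 38.6 CPM (others up to 1.48). Tnfsf13b was high in WT lung CCR6-CD69- replicate 4 at 21.8 CPM (others up to 1.48). Traf5 was high in WT circulating replicate 1 at 281 CPM (others 126 to 137), and Traf7 in WT circulating replicate 2 at 266 CPM (others 89.6 to 111). Traf7 was low in WT lung CCR6+CD69+ replicate 1 at 103 CPM (others 139 to 144).

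The other 3 rest on 3 counts or fewer in a library beside 3 libraries at 0: Tnfrsf4 in WT circulating replicate 1 at 1.33 CPM and in cKO circulating replicate 1 at 0.548 CPM, and Tnfsf13b in WT circulating replicate 1 at 0.442 CPM. For members, 0 passed the test of a genotype effect that differed between populations.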

How the results depend on the processing

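Over the 6 groups 2 members were called, 1 with RLE factors, 0 in batch 1 alone and 1 in batch 2 alone. Between lung CCR6+CD69+ and circulating cells 2 were called, 5 with DESeq2, 4 with only the groups compared, 1 in WT alone, 1 in cKO alone, 0 in batch 1 alone and 1 in batch 2 alone. Between lung CCR6-CD69- and circulating cells 1 was called, 2 with DESeq2, 0 in batch 1 alone and 0 in cKO alone. Between the lung populations 0 were called, 1 with DESeq2 and 1 with no filter. Between genotypes in lung CCR6-CD69- 0 were called, 1 with DESeq2 and 1 with no filter. The batch and genotype subsets hold fewer libraries; for the rest the cause was not tested. The share of all genes called under each setting is not given beside these counts, so a change need not be particular to the members. Without the small and the Chil3-led libraries together, Tnfrsf1a changed sign between lung populations (0.61) and between genotypes in lung CCR6-CD69- (-2.37). Without the small libraries, the Chil3-led libraries or both, edgeR called Tnfrsf9 and Tnfrsf1a over the 6 groups and between lung CCR6+CD69+ and circulating cells, and in the last comparison also Tnfsf13b without the Chil3-led libraries. The RLE factors moved the median of all genes between lung populations from 0.14 to 0.03.

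Leaving out each library in turn gave 1 to 3 members over the 6 groups, 0 to 1 between lung populations, 1 to 3 between lung CCR6+CD69+ and circulating cells, 1 to 1 between lung CCR6-CD69- and circulating cells, and 0 to 0 in each genotype comparison and for the genotype effect by population. The shares of all genes called in these fits are not given here, so a change need not be particular to the members. The 23 expressed members ranged from 23 to 26 under other settings.

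The labels do not say that a replicate number marks a shared animal. In deviations from group means, libraries with the same description number correlated at 0.080 to 0.228 (median 0.13, against -0.052 for other pairs), with 20 of 24 pairs above 0.1, short of all 24, so the libraries were not treated as paired. All 24 pairs were above 0, and the limit of 0.1 was a choice. Within group and batch 0 of 24 pairs were above 0.1 (median 0.030). The 2 libraries of a group in a batch have mirrored deviations, so these 24 pairs are not separate values. That 18 of 24 libraries were most like their own description number is a hint from the data toward shared numbers, not from the design. With the replicate block by title number 2, 0, 2 and 1 members were called over the 6 groups and in the 3 population pairs, and 0 in each genotype comparison. The block by description number gave 0, 2 and 1 in the population pairs. For both blocks the share of all genes called is not given here, so these counts cannot be called particular to the members. Depth limits the rarer members: 3 counts were 23.3 CPM in the smallest library, above most values of the ligands.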
